A study of Mus musculus with 6 samples.

Results

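The genes described here are 9 receptors and transcription factors that mark haematopoietic stem and progenitor cells: Kit, Cd34, Flt3, Meis1, Hoxa9, Tal1, Lmo2, Myb and Gfi1b. They were chosen by name, and all 9 were found by symbol among the 15483 genes of the deposited tables. RNA was sequenced from regulatory T cells (Tregs) sorted from mouse bone marrow as CD3+CD4+NK1.1-Foxp3+ cells, with 3 libraries from mice 3 months after irradiation (IR) and 3 libraries from control mice. All mice carried the genotype WT. The sources used here do not give the radiation dose, the age or sex of the mice, or whether each library came from 1 animal or a pool. The p-values therefore measure only how far these libraries spread, which may be technical.

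Blood formation in the marrow starts from rare stem cells. KIT, on stem cells and early progenitors, and FLT3, on early progenitors, are receptor tyrosine kinases. They answer to stem cell factor (encoded by Kitl) and FLT3 ligand (Flt3l). CD34 is a sialomucin of progenitors and of blood vessel endothelium. Inside stem and progenitor cells TAL1 and LMO2 assemble with LDB1, E proteins and GATA factors on DNA, and MEIS1 and HOXA9 bind DNA together with PBX proteins. MYB maintains the division of immature cells, and GFI1B is a transcriptional repressor that acts in red cell and platelet development. None of these is a defining gene of Tregs. Several are also transcribed outside progenitors: Kit in mast cells and some innate lymphoid cells, Flt3 in dendritic cells, Tal1 and Gfi1b in erythroid cells and megakaryocytes, and Myb in granulocyte precursors.

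The stretches of 250 bases before the transcription start are shown for Flt3 and Cd34, whose transcripts were lower in irradiated libraries, and for Tal1 and Gfi1b, 2 factors that did not pass the test. They are RefSeq promoters on GRCm38.p6, written 5′ to 3′ on the strand of the gene, and an entry was matched for 8 of the 9 genes. Capitals mark GATA hexamers and E-boxes. The hexamers are the letter run AGATAA, its form with a final G (written AGATAG), the form with an initial T (written TGATAA), and the form that has both changes (written TGATAG), and the E-boxes are CANNTG, the kind of core bound by TAL1 with E proteins, each searched on both strands.
Flt3, chr5:147400490-147400739, minus strand: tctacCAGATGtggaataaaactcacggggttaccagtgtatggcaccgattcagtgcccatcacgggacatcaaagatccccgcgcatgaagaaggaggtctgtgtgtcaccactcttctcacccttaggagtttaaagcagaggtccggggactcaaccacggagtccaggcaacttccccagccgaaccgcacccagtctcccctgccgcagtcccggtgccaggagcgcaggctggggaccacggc
Cd34, chr1:194938571-194938820, plus strand: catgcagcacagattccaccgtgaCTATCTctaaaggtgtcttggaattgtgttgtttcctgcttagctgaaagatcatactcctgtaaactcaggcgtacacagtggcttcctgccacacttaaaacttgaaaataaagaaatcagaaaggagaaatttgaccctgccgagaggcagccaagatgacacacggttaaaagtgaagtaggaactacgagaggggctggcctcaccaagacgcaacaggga
Tal1, chr4:115056176-115056425, plus strand: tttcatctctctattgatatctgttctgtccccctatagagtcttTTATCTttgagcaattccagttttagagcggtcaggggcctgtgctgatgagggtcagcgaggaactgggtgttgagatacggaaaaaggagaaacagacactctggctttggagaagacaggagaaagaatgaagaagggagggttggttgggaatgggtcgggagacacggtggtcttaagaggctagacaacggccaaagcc
Gfi1b, chr2:28621983-28622232, minus strand: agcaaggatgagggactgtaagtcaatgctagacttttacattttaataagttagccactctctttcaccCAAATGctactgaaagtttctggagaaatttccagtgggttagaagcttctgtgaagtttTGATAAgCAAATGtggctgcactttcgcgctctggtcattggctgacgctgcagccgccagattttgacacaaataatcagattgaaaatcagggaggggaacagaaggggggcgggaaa
The Gfi1b stretch held 1 GATA hexamer and 2 E-boxes, and 1 base separates the hexamer from one of these E-boxes. Flt3 had 1 E-box and no GATA hexamer, and Cd34 and the Tal1 entry shown had 1 GATA hexamer each and no E-box. A second Tal1 entry (chr4:115057561-115057810, GC content 62.8%) held neither. Of the 8 matched genes, 4 held a GATA hexamer in at least 1 entry and 4 an E-box, against 26.5% and 66.2% of all 32851 entries of the table. MYB sites were searched as the letter run CAACTG (also an E-box), its form with a double final G (written CAACGG), the form with an initial T (written TAACTG), and the form that has both changes (written TAACGG). They were found for 1 of the 8 and in 23.7% of all entries, and CCGGAA, an ETS core, for 1 of the 8 and in 12.0%. The MEIS core TGACAG (15.9% of all entries) and an interferon element (GAAA, any 2 bases, GAAA, in 2.98%) were found for 0 of the 8. GC content ran from 44.4% for Gfi1b to 81.2% for Myb, with a median of 52.4% over all entries. A match of letters is a description of the sequence and not evidence of binding.

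The libraries carried transcripts of many marrow cells beside those of Tregs. Levels are given in FPKM, sequenced fragments divided by transcript length in kilobases and by library size. Foxp3, the defining factor of Tregs, averaged 12.6 ± 0.795 FPKM in irradiated libraries and 22.6 ± 1.93 FPKM in control libraries (SD, n = 3 each), while the neutrophil gene S100a8 stood at 39026 ± 427 and 25283 ± 1249 FPKM. Counts of marker genes called by limma (log2(FPKM + 1), Benjamini-Hochberg adjusted p under 0.05 over 10666 genes) are given over the markers that were tested. Over all tested genes 6.29% were higher and 10.3% lower. In irradiated libraries 4 of 7 neutrophil precursor, 10 of 12 mature neutrophil and 7 of 9 mast cell and basophil markers were higher and 0 lower. Lower were 12 of 13 T cell, 8 of 9 Treg, 8 of 9 B cell precursor, 6 of 7 mature B cell, 8 of 11 plasmacytoid dendritic, 3 of 6 conventional dendritic (Flt3 left out), 12 of 13 monocyte and macrophage, 7 of 9 eosinophil and 7 of 14 erythroid markers, and 0 of these were higher. Of 11 NK and innate lymphoid markers (Kit left out) 1 was higher and 8 lower, of 5 tested megakaryocyte markers 1 was higher and 1 lower, and of 6 tested endothelial and stromal markers 0 were higher and 2 lower. The summed level of the 9 progenitor genes ran from 162 to 170.2 FPKM in irradiated libraries and from 161 to 169.8 FPKM in control libraries. Lmo2 and Myb made up most of this sum, at means of 57.3 and 54.2 FPKM in irradiated and 48.0 and 54.5 FPKM in control libraries. A level sum therefore does not show that each member was level. The part of the other marrow cells in the results on the progenitor genes was not tested.

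**Figure D1:**
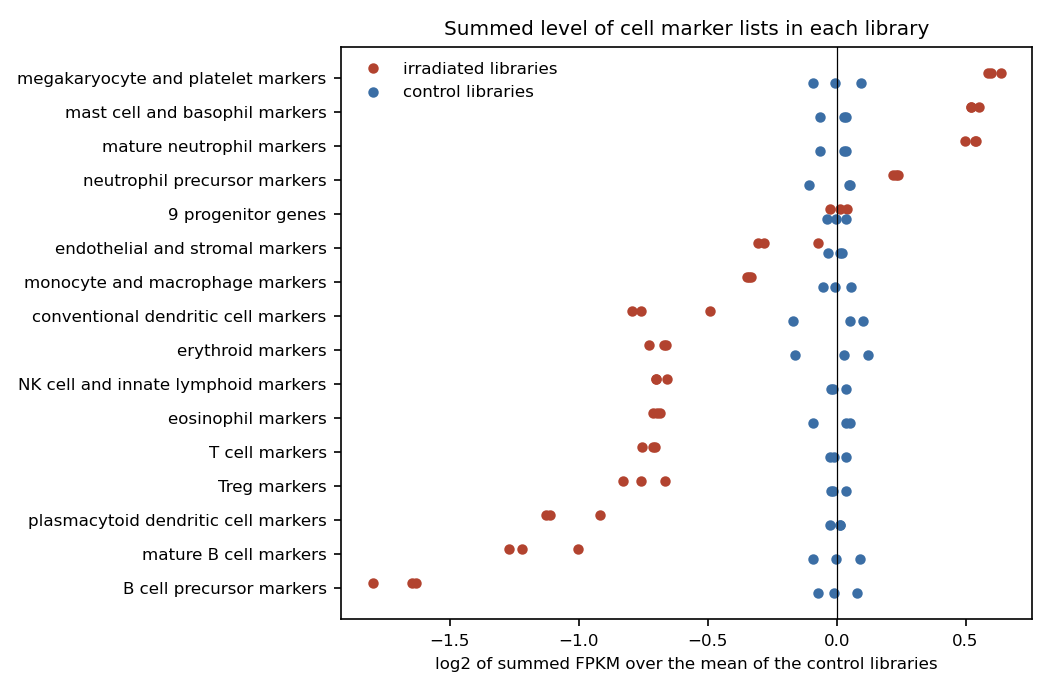
Summed FPKM of each cell marker list (progenitor genes left out of the lists) and of the 9 progenitor genes, as log2 over the mean of the control libraries, 1 point per library, irradiated libraries above control libraries in each row. The sum of the progenitor genes, mostly Lmo2 and Myb, lies around 0 in both groups. Irradiated points of the megakaryocyte (mostly Itga2b), mast cell and basophil, and neutrophil lists lie above. Those of the lymphoid, dendritic, monocyte and macrophage, erythroid, eosinophil, and endothelial and stromal lists lie below.

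The question put to these libraries was how marrow Tregs differ 3 months after irradiation. Among the progenitor genes, Flt3 and Cd34 were lower in irradiated libraries, Lmo2 was higher, and Kit, Meis1, Hoxa9, Tal1, Myb and Gfi1b did not pass. All 9 had a mean of at least 1 FPKM and were tested, with p adjusted over all 10666 genes. The 3 called genes are 33.3% of the members, against 16.6% of all tested genes, of which 6.29% were higher and 10.3% lower. With 9 genes this difference in share rests on few calls, and the call of Cd34 was lost in 8 of 12 alternative fits. The groups did not overlap for 4 members (Flt3, Cd34, Meis1 and Lmo2), against 33.6% of all tested genes. Of these 4, 1 was higher and 3 lower, against 13.5% and 20.1% of all tested genes. The median log2 change of the members was -0.01 and that of all tested genes -0.02. The median standard error was 0.12 for the members and 0.11 for all.

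**Figure D2:**
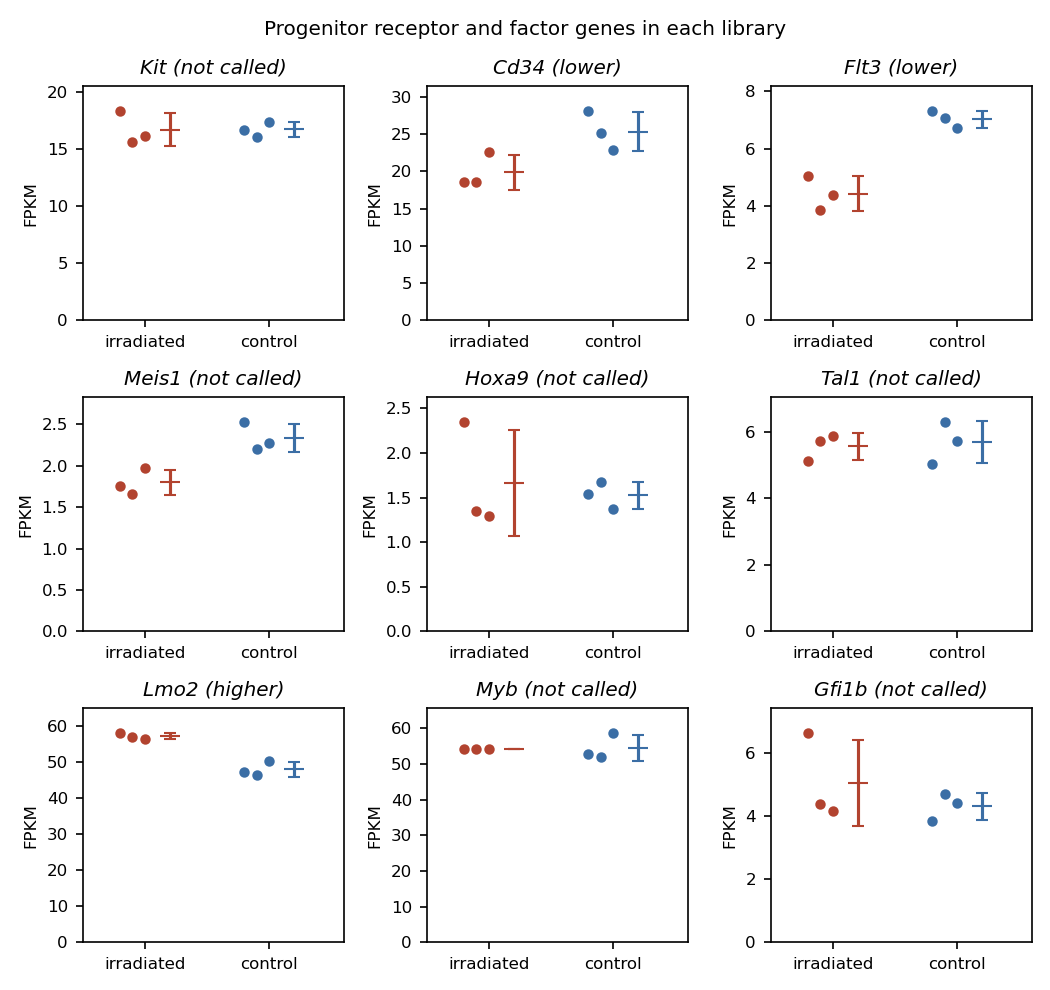
FPKM of each progenitor gene in the 3 irradiated and the 3 control libraries (points), with the mean and SD of each group beside them (bars). Flt3, Cd34 and Meis1 lie lower in all irradiated libraries than in any control library, Lmo2 lies higher, and irradiated replicate 1 lies above the other irradiated libraries for Hoxa9 and Gfi1b.

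Flt3 showed the largest change among the 9 genes. It encodes the receptor of FLT3 ligand, which early lymphoid progenitors and dendritic cells depend on (chromosome 5, 147330741 to 147400489, minus strand). Levels were 5.06, 3.86 and 4.36 FPKM in irradiated replicates 1, 2 and 3, and in control replicates 1, 2 and 3 they were 7.31, 7.07 and 6.71 FPKM. The groups did not overlap, and the irradiated mean was 63.0% of the control mean. The log2 change was -0.57 ± 0.12 (SE, limma, adjusted p = 0.00901), with a 95% interval from -0.84 to -0.30. Flt3 was called in all 12 alternative fits, at adjusted p from 0.00685 to 0.0426. In these bulk samples fewer cells of a type and less RNA per cell cannot be told apart.

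Marker lists of dendritic cells, which transcribe Flt3, and of B cell precursors were lower in the same libraries. So were those of T cells, mature B cells, monocytes and macrophages, eosinophils and erythroid cells, as given above. Plasmacytoid dendritic markers summed to between 122.9 and 142 FPKM in irradiated libraries and between 263 and 271 FPKM in control libraries. Their most abundant genes, Irf8 and Bst2, changed by -0.65 ± 0.05 and -1.38 ± 0.10. The conventional dendritic list, Flt3 left out, summed to between 22.6 and 27.8 FPKM in irradiated libraries and between 34.8 and 42.0 FPKM in control libraries, with a log2 change of -1.07 ± 0.16 for Cd209a and -0.37 ± 0.18 without a call for Clec10a. B cell precursor markers summed to between 35.6 and 39.99 FPKM in irradiated libraries and between 118 and 131 FPKM in control libraries, and Ly6d, their most abundant gene, changed by -2.08 ± 0.10. The next, Il7r, did not pass at -0.26 ± 0.10. Of these 3 lists Vpreb2 alone, chosen after its values were seen, was at 0 in all irradiated libraries, and it reached at most 0.335 FPKM in control libraries. The part of these cells in the Flt3 result was not tested.

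Cd34 was lower by a smaller margin and with a less stable call. It encodes the CD34 sialomucin (chromosome 1, 194938819 to 194961279, plus strand). Irradiated replicates 1, 2 and 3 had 18.6, 18.5 and 22.6 FPKM, and control replicates 1, 2 and 3 had 28.1, 25.1 and 22.8 FPKM. The groups did not overlap, but the highest irradiated and the lowest control library lay close together. The log2 change was -0.34 ± 0.10 (limma, adjusted p = 0.0450), with a 95% interval from -0.56 to -0.11. Adjusted p ran from 0.0207 to 0.176 over 12 alternative fits. The call was lost without irradiated replicate 1 (0.120) or 2 (0.129) and without control replicate 1 (0.176) or 2 (0.110). With median-of-ratios scaling adjusted p was 0.0737, with quantile normalization 0.0765, without a filter on low values 0.109, and the sign was negative in each of these fits. Endothelial and stromal markers summed to between 31.5 and 36.97 FPKM in irradiated libraries and between 38.0 and 39.5 FPKM in control libraries. Pecam1, their most abundant gene, made up most of this sum, at 25.9 ± 2.24 FPKM in irradiated and 26.0 ± 1.09 FPKM in control libraries. It did not pass (-0.01 ± 0.08), nor did Cxcl12 (0.34 ± 0.15). Cdh5, a defining gene of endothelium chosen after its values were seen, was at 0.0931, 0.478 and 0 FPKM in irradiated libraries and at 1.20, 1.15 and 1.18 FPKM in control libraries. Of the other endothelial genes of the list, Tie1 did not pass (0.02 ± 0.16). The groups overlapped for Emcn, while Kdr and Tek, both untested, were lower in all irradiated libraries. The genes of the list called lower were the collagen genes Col1a1 (-0.96 ± 0.15) and Col1a2 (-1.56 ± 0.17). The part of these cells in the Cd34 result was not tested.

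Kit, the receptor of stem cell factor, did not pass (chromosome 5, 75574916 to 75656722, plus strand). In irradiated replicates 1, 2 and 3 it had 18.3, 15.7 and 16.2 FPKM, and in control replicates 1, 2 and 3 it had 16.7, 16.1 and 17.4 FPKM. The groups overlapped, and the log2 change of 0.00 ± 0.09 had a 95% interval from -0.20 to 0.19 (limma, adjusted p = 0.982). Markers of mast cells, which transcribe Kit, and of basophils were kept in the same list, and most were higher in the same libraries. They summed to between 3608 and 3692 FPKM in irradiated libraries and between 2405 and 2581 FPKM in control libraries. Most of this sum came from the basophil proteases Prss34 and Mcpt8. They averaged 1930 and 1125 FPKM in irradiated and 1294 and 798 FPKM in control libraries, and rose by 0.58 ± 0.04 and 0.50 ± 0.05. Cma1, a protease of connective tissue mast cells chosen after its values were seen, was at 0 in all libraries but control replicate 3 (0.257 FPKM).

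Flt3 and Kit belong to the same class of receptor kinases, and the gap between their levels differed between the groups. The log2 value of Flt3 minus that of Kit was -1.68, -1.78 and -1.68 in irradiated replicates 1, 2 and 3, and -1.09, -1.09 and -1.26 in control replicates 1, 2 and 3. All irradiated values lay below all control values, a difference of -0.57. The two-sided exact permutation p was 0.1, the smallest that 3 libraries against 3 allow, and 0.167 adjusted over the 5 gene pairs compared this way. The pairs were chosen after their values were seen.

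Of 18 tested genes of 20 in the list of KIT and FLT3 ligands and signalling genes 0 were higher and 2 lower, against 6.29% and 10.3% of all tested genes, with a median of -0.08. Fyn, a Src kinase, fell by 0.33 on the log2 scale (SE 0.09, limma adjusted p = 0.0284) and Cblb, a ubiquitin ligase that restrains receptor signals, by 0.40 (SE 0.12, adjusted p = 0.0408). Both genes are transcribed in T cells too, whose markers were lower. Leaving out irradiated replicate 2 or 3 or any control replicate ended both calls, at adjusted p up to 0.0920 for Fyn and 0.118 for Cblb. Cblb also did not pass without a filter (0.0762), with median-of-ratios scaling (0.0519) or with quantile normalization (0.0601). The phosphatase gene Inpp5d (-0.21 ± 0.07) and the PI3 kinase subunit gene Pik3r1 (-0.27 ± 0.09) did not pass. Flt3l, the ligand gene of FLT3, stood at 12.6 ± 0.849 FPKM in irradiated and 12.3 ± 2.49 FPKM in control libraries (0.05 ± 0.13, adjusted p = 0.857). Kitl, made by stromal cells, averaged under 1 FPKM and went untested. It stood at 0.173, 0.183 and 0.477 FPKM in irradiated libraries and at 0.719, 0.497 and 0.640 FPKM in control libraries.

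**Figure D3:**
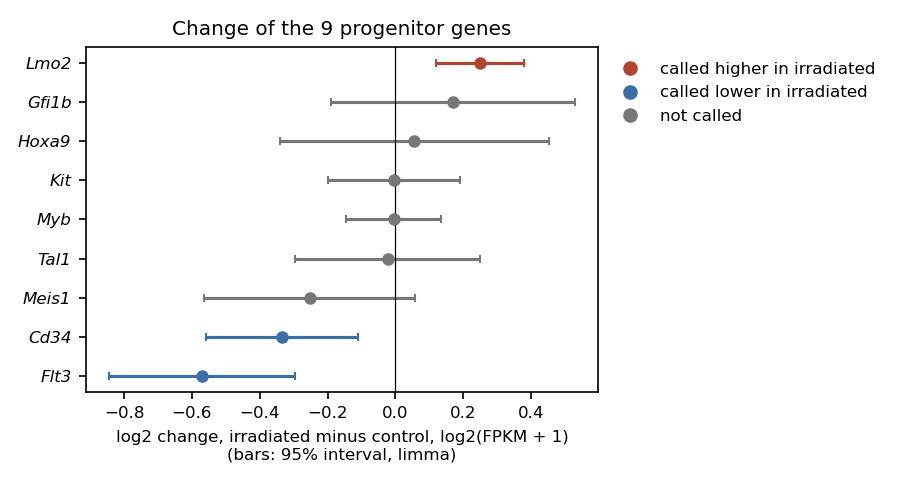
Log2 change of each progenitor gene, irradiated minus control on log2(FPKM + 1), with its 95% interval from limma. Lmo2 at 0.25 lies above 0, Cd34 at -0.34 and Flt3 at -0.57 lie below, and the intervals of the other 6 genes cross 0.

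Lmo2 was the member that rose. It encodes the LIM-domain bridge between TAL1, GATA factors and LDB1 (chromosome 2, 103957986 to 103981878, plus strand). Levels were 58.1, 57.1 and 56.6 FPKM in irradiated replicates 1, 2 and 3, and in control replicates 1, 2 and 3 they were 47.4, 46.4 and 50.4 FPKM. The groups did not overlap, and the irradiated mean was 119% of the control mean. The log2 change was 0.25 ± 0.06 (limma, adjusted p = 0.0146), with a 95% interval from 0.12 to 0.38. Adjusted p ran from 0.00693 to 0.0689 over 12 alternative fits, and the call was lost without control replicate 1 (0.0561) or 2 (0.0689).

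Tal1, the basic helix-loop-helix factor at the centre of the same complex, did not pass (chromosome 4, 115056426 to 115071755, plus strand). Irradiated replicates 1, 2 and 3 had 5.11, 5.73 and 5.87 FPKM, and control replicates 1, 2 and 3 had 5.03, 6.30 and 5.74 FPKM. The groups overlapped, with a log2 change of -0.02 ± 0.12 and a 95% interval from -0.29 to 0.25. The log2 value of Lmo2 minus that of Tal1 was 3.27, 3.11 and 3.07 in irradiated libraries and 3.003, 2.70 and 2.93 in control libraries. All irradiated values lay above all control values, a difference of 0.27 (two-sided exact permutation p = 0.1, and 0.167 adjusted over the 5 pairs).

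Partners of TAL1 and LMO2 changed in both directions. Of 17 tested genes of 18 in this list, 5 were higher and 3 lower, against 6.29% and 10.3% of all tested genes, with a median of 0.00. Gata2, the GATA factor of stem cells, mast cells and basophils, had 82.2, 86.3 and 85.2 FPKM in irradiated libraries, against 52.7, 48.6 and 55.8 FPKM in control libraries. Its log2 change was 0.68 ± 0.06 (limma, adjusted p = 2.69e-05), and the basophil markers named above were higher in the same libraries. Erg, an ETS factor of stem cells and endothelium, rose by 0.49 ± 0.11 (adjusted p = 0.00961). Lyl1, the closest relative of Tal1, rose by 0.26 ± 0.06 (adjusted p = 0.0104) and stood at 86.3 ± 4.77 FPKM in irradiated and 71.9 ± 1.47 FPKM in control libraries, far above Tal1. Zfpm1, which encodes the GATA1 cofactor FOG1, fell by 0.69 on the log2 scale (SE 0.12, adjusted p = 0.00231). Gata1, the GATA factor of red cells and eosinophils, stood at 8.51 ± 0.771 FPKM in irradiated and 10.2 ± 2.75 FPKM in control libraries and did not pass (-0.21 ± 0.16, adjusted p = 0.436). Ldb1, the scaffold of the complex, did not pass either (0.01 ± 0.10, adjusted p = 0.958).

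The other called partners were Ssbp4 (0.33 ± 0.07) and Lmo4 (0.20 ± 0.05), which were higher, and Tcf3, an E protein gene (-0.31 ± 0.07), and Ssbp3 (-0.43 ± 0.11), which were lower. These 4 were chosen after their values were seen. The call of Lmo4 was lost without irradiated replicate 1 or 3 or control replicate 1 or 2 (adjusted p up to 0.103), and that of Ssbp3 without irradiated replicate 1 or 2 or control replicate 1 or 2 (up to 0.0840). B cell precursor markers, which accompany Tcf3 in early B cells, were lower in the same libraries, and their part was not tested.

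**Figure D4:**
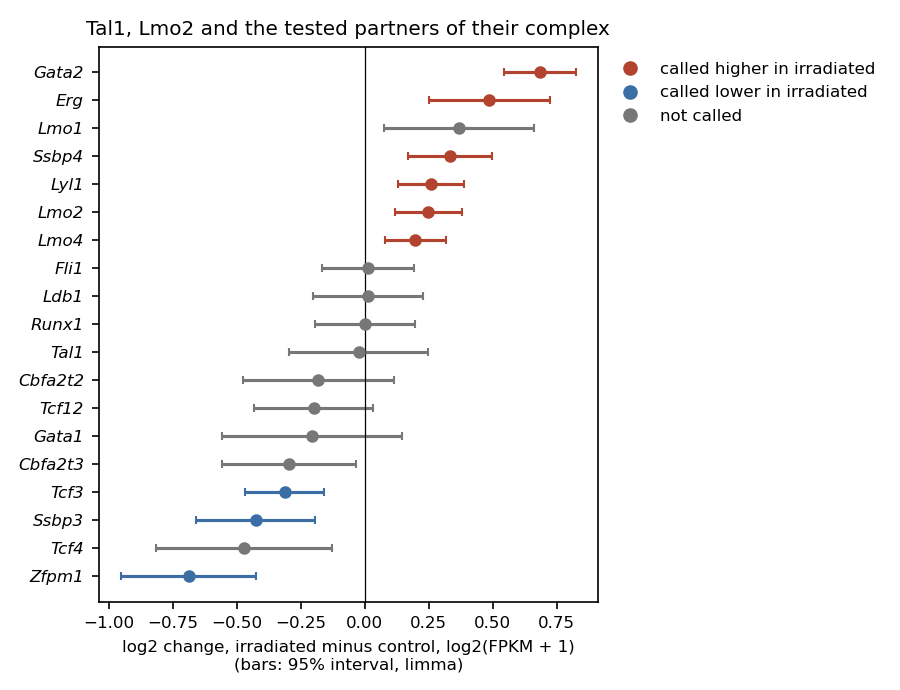
Log2 change of Tal1, Lmo2 and the 17 tested partners, irradiated minus control on log2(FPKM + 1), with 95% intervals from limma. Gata2 at 0.68 is highest and Zfpm1 at -0.69 lowest, while Ldb1, Runx1, Fli1 and Tal1 lie near 0.

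Gfi1b, which encodes a repressor that acts in red cell and megakaryocyte development, did not pass (chromosome 2, 28609450 to 28621982, minus strand). In irradiated replicates 1, 2 and 3 it had 6.63, 4.38 and 4.15 FPKM, and in control replicates 1, 2 and 3 it had 3.83, 4.70 and 4.40 FPKM. Irradiated replicate 1 was the highest of all 6 libraries, and the other 2 irradiated libraries lay within the range of the control libraries. The log2 change was 0.17 ± 0.16 (adjusted p = 0.544), with a 95% interval from -0.19 to 0.53, and it was -0.01 without irradiated replicate 1. Markers of these lineages are given beside it. Erythroid markers summed to 796, 792 and 762 FPKM in irradiated replicates 1, 2 and 3, and to between 1126 and 1370.3 FPKM in control libraries. Megakaryocyte and platelet markers summed to 79.6, 77.5 and 76.96 FPKM in irradiated replicates 1, 2 and 3, and to between 48.1 and 54.7 FPKM in control libraries. Within these lists Hbb-bs and Hba-a1 changed by -0.71 ± 0.06 and -0.66 ± 0.06. Itga2b, which encodes the platelet integrin CD41 found on progenitors and basophils too, rose by 0.75 ± 0.08 (adjusted p = 4.87e-05), and Pf4 did not pass at 0.36 ± 0.12. Itga2b made up most of the megakaryocyte and platelet sum, at 59.8 ± 1.30 FPKM in irradiated and 35.3 ± 3.46 FPKM in control libraries. Ppbp, a platelet chemokine gene of the same list, was lower (-1.14 ± 0.21, adjusted p = 0.00311), at 0.332 ± 0.266 FPKM in irradiated and 1.94 ± 0.569 FPKM in control libraries. Some less abundant genes were highest among irradiated libraries in replicate 1, such as Alas2 (11.8, 9.23 and 8.59 FPKM in irradiated replicates 1, 2 and 3) and Gp1bb (3.03, 1.85 and 1.66 FPKM). Others, such as Klf1 (2.71, 3.59 and 6.61 FPKM), were not. Ppbp, Alas2, Gp1bb and Klf1 were chosen after their values were seen, and the part of these lineages in the Gfi1b value was not tested.

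Gfi1, the paralogue that acts in granulocyte precursors and lymphocytes, was higher. It had 30.9, 30.4 and 28.5 FPKM in irradiated libraries, against 21.6, 21.8 and 21.4 FPKM in control libraries, a log2 change of 0.45 ± 0.07 (limma, adjusted p = 0.00117). Neutrophil precursor markers summed to between 6438 and 6533 FPKM in irradiated libraries and between 5145 and 5748 FPKM in control libraries. The log2 value of Gfi1 minus that of Gfi1b was 2.06, 2.54 and 2.52 in irradiated libraries and 2.22, 2.002 and 2.05 in control libraries. These ranges overlapped (difference 0.28, two-sided exact permutation p = 0.2, and 0.2 adjusted over the 5 pairs). Among 8 tested genes of the GFI1 family and its corepressors 1 was higher, Gfi1, and 0 lower, against 6.29% and 10.3% of all tested genes. Kdm1a (0.07 ± 0.09), Hdac2 (-0.07 ± 0.10) and Ehmt2 (-0.22 ± 0.09) did not pass.

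Meis1, a homeobox factor of stem cells and megakaryocytes, had the largest change among members that did not pass (chromosome 11, 18879817 to 19018985, minus strand). Levels were 1.76, 1.66 and 1.97 FPKM in irradiated replicates 1, 2 and 3, and in control replicates 1, 2 and 3 they were 2.53, 2.20 and 2.28 FPKM. The groups did not overlap, and the log2 change was -0.25 ± 0.14 (adjusted p = 0.262), with a 95% interval from -0.56 to 0.06. Adding 1 FPKM before taking logs shrinks changes at such low levels, and with a pseudocount of 0.1 the change was -0.36 and did not pass either. The irradiated mean was 77.0% of the control mean.

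Hoxa9, the homeobox partner of MEIS1, was the lowest of the 9 genes in both groups (chromosome 6, 52223100 to 52231089, minus strand). Irradiated replicates 1, 2 and 3 had 2.35, 1.35 and 1.29 FPKM, and control replicates 1, 2 and 3 had 1.54, 1.67 and 1.37 FPKM. Irradiated replicate 1 was again the highest of all libraries and the other irradiated libraries were the lowest. The log2 change of 0.06 ± 0.18 had a 95% interval from -0.34 to 0.45 (adjusted p = 0.878) and was -0.12 without irradiated replicate 1. The log2 value of Meis1 minus that of Hoxa9 was -0.28, 0.18 and 0.37 in irradiated libraries and 0.47, 0.26 and 0.47 in control libraries. The difference was -0.31 (two-sided exact permutation p = 0.2, and 0.2 adjusted over the 5 pairs), with groups that overlapped.

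Other homeobox factors and their MLL partners were counted next. Of 25 genes in the list of HOX and TALE factors and MLL partners 21 were listed and 12 tested, of which 2 were higher and 0 lower, against 6.29% and 10.3% of all tested genes, with a median of 0.11. Pbx4, which encodes a cofactor of HOX proteins, rose by 0.67 ± 0.20 (limma adjusted p = 0.0436), a call lost without irradiated replicate 2 or 3 or control replicate 2 or 3 (up to 0.155) and without a filter (0.129). Pbx2 (0.20 ± 0.09) and Psip1, which encodes the chromatin tether of MLL (-0.23 ± 0.08), did not pass.

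Myb, which encodes a DNA-binding factor of dividing immature cells, did not pass (chromosome 10, 21124935 to 21160984, minus strand). In irradiated replicates 1, 2 and 3 it had 54.3, 54.2 and 54.1 FPKM, and in control replicates 1, 2 and 3 it had 52.9, 51.9 and 58.7 FPKM. All irradiated values lay inside the control range, with a log2 change of -0.01 ± 0.06 and a 95% interval from -0.15 to 0.13 (adjusted p = 0.970). Mpo and Elane, granule genes of the promyelocytes that also transcribe Myb, did not pass either (0.06 ± 0.05 each). Of the same list of 7 neutrophil precursor markers, Prtn3 (0.45), Ctsg (0.61), Ms4a3 (0.49) and Cebpe (0.27), chosen after their values were seen, were higher. Of 7 tested genes of the MYB family and its coactivators 1 was higher and 0 lower, against 6.29% and 10.3% of all tested genes, with a median of -0.07. The one was Mybl2, a cell cycle gene, at 0.34 ± 0.10 (adjusted p = 0.0366), and its call was lost without irradiated replicate 1 or 2 or control replicate 2 or 3 (up to 0.129) and without a filter (0.0754). Crebbp (-0.20 ± 0.11) and Kmt2a (-0.13 ± 0.11) did not pass. Mybl1 was under the mean of 1 FPKM, at 0.983 ± 0.242 FPKM in irradiated and 0.883 ± 0.198 FPKM in control libraries.

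In FPKM the order of Lmo2 and Myb differed between the groups. By mean FPKM Lmo2 was the highest of the 9 genes in irradiated libraries and Myb in control libraries. Lmo2 was called higher (0.25) and Myb did not pass (-0.01), as given above. Which gene is on top also depends on the lengths behind the deposited values, which the sources used here do not give. The log2 value of Lmo2 minus that of Myb was 0.10, 0.07 and 0.06 in irradiated replicates 1, 2 and 3, and -0.16, -0.16 and -0.22 in control replicates 1, 2 and 3. It was above 0 in every irradiated library and below 0 in every control library, a difference of 0.25 (two-sided exact permutation p = 0.1, the smallest possible, and 0.167 adjusted over the 5 pairs). The pair was chosen after its values were seen.

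**Figure D5:**
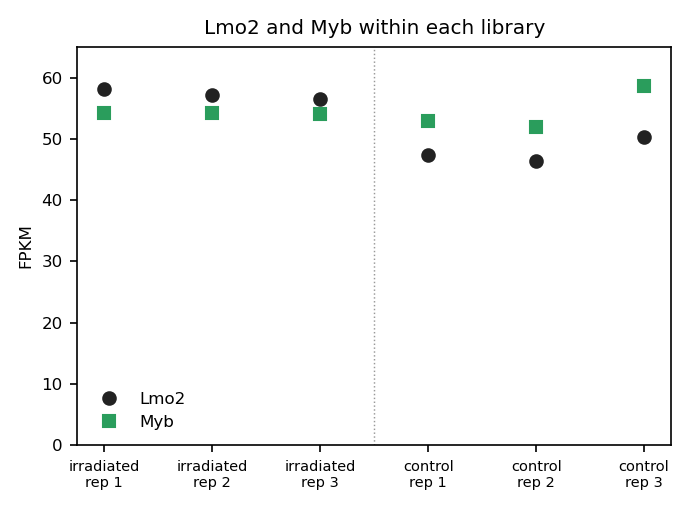
FPKM of Lmo2 (circles) and Myb (squares) in each library, irradiated libraries left of the dotted line and control libraries right of it. Lmo2 lies above Myb in the 3 irradiated libraries, at 56.6 to 58.1 FPKM against 54.1 to 54.3, and below it in the 3 control libraries.

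Per length, the levels of the 9 genes spanned from 57.3 FPKM for Lmo2 to 1.66 FPKM for Hoxa9 in irradiated libraries and from 54.5 FPKM for Myb to 1.53 FPKM for Hoxa9 in control libraries. In irradiated libraries the order by mean was Lmo2, Myb, Cd34, Kit, Tal1, Gfi1b, Flt3, Meis1 and Hoxa9. There Tal1 overlapped with Gfi1b, Gfi1b with Flt3, and Meis1 with Hoxa9. In control libraries the order was Myb, Lmo2, Cd34, Kit, Flt3, Tal1, Gfi1b, Meis1 and Hoxa9, and the ranges of neighbours did not overlap. Flt3 was thus the fifth gene in control and the seventh in irradiated libraries. The coefficient of variation between libraries of a group ran from 0.130% for Myb to 35.6% for Hoxa9 in irradiated libraries and from 3.90% for Kit to 11.1% for Tal1 in control libraries.

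Other stem and progenitor markers fell more often than they rose. Of 26 listed genes 17 were tested, of which 2 were higher and 7 lower, against 6.29% and 10.3% of all tested genes, with a median of -0.17. Ly6a, which encodes the stem cell antigen Sca-1 and is also an interferon-induced gene of T cells, stood at 35.0 ± 4.32 FPKM in irradiated and 92.1 ± 2.36 FPKM in control libraries (log2 change -1.38 ± 0.08, limma adjusted p = 7.93e-07). Cd93 fell by 0.44 on the log2 scale (SE 0.07, adjusted p = 0.00176), and Cd33, a myeloid lectin, rose by 0.59 ± 0.08 (adjusted p = 0.000436). The other called genes were Gata2, given above, and Cd27, Cd48, Mllt3, Egr1 and Slamf1, which were lower and were chosen after their values were seen. Egr1 did not pass without a filter (0.0807) or without irradiated replicate 1 or 3 or control replicate 3 (up to 0.0692). Slamf1, which encodes CD150, lay at the threshold (-0.47 ± 0.15, adjusted p = 0.0498) and did not pass in 9 of 12 alternative fits (adjusted p up to 0.186). Hlf, a factor of quiescent stem cells, stood at 2.20 ± 0.292 FPKM in irradiated and 1.71 ± 0.0798 FPKM in control libraries and did not pass (0.24 ± 0.15). Ikzf1, transcribed in progenitors and lymphocytes, did not pass (-0.05 ± 0.05). Mecom and Procr, stem cell genes chosen after their values were seen, averaged 0.0454 and 0.287 FPKM in irradiated libraries and 0.0737 and 0.317 FPKM in control libraries. Some markers of the most immature cells were thus near the floor while Kit, Cd34, Lmo2 and Myb were not. T cell markers, which accompany Ly6a, Cd27, Cd48 and Slamf1 in lymphocytes, summed to between 298 and 308 FPKM in irradiated libraries and between 493 and 515 FPKM in control libraries.

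The genes with the most similar pattern over the 6 libraries, by the root mean square difference of centred log2(FPKM + 1), were Tor3a and Pea15a for Flt3 (0.0524 and 0.0522), Slc12a2 and Utp25 for Cd34 (0.0431 and 0.0457), and Vasp and Ccdc88b for Lmo2 (0.0147 and 0.0167). These genes were picked by closeness over the same 6 libraries, so a change like that of the member follows from the choice. Vasp and Ccdc88b were called higher (0.26 and 0.24). Tor3a and Pea15a were called lower (-0.62 and -0.51), while Slc12a2 and Utp25 did not pass (-0.30 and -0.27). For the members without a call the closest genes were Tiam2 and Wdr91 for Kit, Zbtb7a and Mul1 for Meis1, Oip5 and Adgrg7 for Hoxa9, Tomm20 and Zc3h18 for Tal1, Grk2 and Dpm2 for Myb, and Gemin4 and Helq for Gfi1b, at differences from 0.0194 to 0.0629. None of these closest genes was itself a member.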

How the data were processed

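The values the authors deposited, 1 for each gene in each library, are taken to be FPKM, since the libraries differ in column total but hardly once each value is multiplied by exonic length and summed. Per the submitters' processing notes they used HISAT2, StringTie and fastp, and the notes name mm10 and GRCm38 as builds. The sources used here give no version, setting or annotation. The file headers name only gene and sample. Per the labels' protocols a stranded mRNA kit was used. Gene coordinates and exonic lengths are from GENCODE M21 on GRCm38.

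The test was limma 3.58.1 (R 4.3.3, lmFit, eBayes with trend) on log2(FPKM + 1) for genes whose mean over 6 libraries reached 1 FPKM, two-sided, Benjamini-Hochberg adjusted over 10666 genes at a threshold of 0.05. This scale understates the change of low genes. The test was tried on simulated data first. It recovered 44.5% of changes of 0.5 on the log2 scale and 86.2% of changes of 1. Each of 5 draws changed 200 of 10666 genes, fewer than the 1771 called in the data, so recovery in the data may differ. A gene that did not pass may therefore still have changed. Tables used Python 3.11.15, pandas 2.3.3, numpy 2.4.6, scipy 1.17.1 and matplotlib 3.10.9.

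The files hold no read counts. From ratios of values under 0.1 FPKM, relative depth against control replicate 1 was 92.1%, 92.6% and 81.6% in irradiated replicates 1, 2 and 3, and 98.5% and 103% in control replicates 2 and 3. Absolute depth is unknown.

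Groups came from the sample titles, which give no batch. Members and gene lists (6 of partner genes, 15 of cell markers) were chosen with earlier results of these data known. Named were all members, up to 4 genes per partner list with the lowest p, 11 fixed partner genes, the 2 most abundant genes per marker list where a result touched it, and the 2 closest patterns per member. The values of 1 gene of the homeobox list are not reported here. Alternatives were a pseudocount of 0.1, no filter, 2 scalings, array weights, leaving out each library, and a replicate block.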

Additional observations from a re-analysis of the deposited data

How the results depend on the processing

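Flt3 kept its direction and call in all 12 alternative fits. The titles do not say whether replicate numbers pair the libraries. Deviations of same-numbered libraries from their group means correlated at 0.01, -0.04 and -0.02. With 3 libraries per group this cannot show whether they were paired. With the number as a replicate block 558 genes were higher and 948 lower, against 671 and 1100 without it, 1 progenitor gene was higher and 1 lower, and Cd34 (-0.34) did not pass, at adjusted p = 0.0822. Of the other named genes with a call, Fyn (0.0530), Cblb (0.0627), Lmo4 (0.0548), Pbx4 (0.0658) and Slamf1 (0.0511) did not pass under the block either. The count of progenitor genes called lower was also 1 without a filter and with median-of-ratios or quantile scaling. There Cd34 did not pass, at -0.34, -0.30 and -0.31. Without a filter more genes entered the fit, and the cause of the lost call was not tested for any of these settings. Median-of-ratios scaling gave 813 genes higher and 939 lower and quantile normalization 836 and 969.

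Leaving out 1 library, the genes called higher numbered 414 to 684 and those called lower 709 to 968, both lowest without control replicate 2. Progenitor genes called higher numbered 0 to 1 and lower 1 to 2. The change of Cd34 ran from -0.43 to -0.26 and that of Lmo2 from 0.22 to 0.28. Members near 0 changed sign without a call: Kit from -0.069 to 0.038, Hoxa9 from -0.12 to 0.15, Tal1 from -0.10 to 0.042, Myb from -0.039 to 0.048 and Gfi1b from -0.0096 to 0.27. So did Kit with median-of-ratios scaling (0.027), quantile normalization (0.020) and array weights (0.0070), Tal1 with median-of-ratios (0.0056) and quantile (0.035) scaling, and Myb with median-of-ratios scaling (0.028) and array weights (0.015). Among other named genes near 0, leaving out 1 library moved Flt3l from -0.088 to 0.18, Hdac2 from -0.12 to 0.043, Kdm1a from -0.0094 to 0.12, Ldb1 from -0.065 to 0.094, Mpo from -0.010 to 0.090 and Pecam1 from -0.076 to 0.041. Pecam1 was also above 0 with median-of-ratios scaling (0.022), quantile normalization (0.0075) and array weights (0.00034). The cause was not tested. Gene pairs were not run with array weights. Absolute depth is unknown, so counting error was not given.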
